A study of Homo sapiens with 3 samples.

Results

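The genes of glycolysis were examined for YTHDC1 on chromatin in A549, a cell line that was grown from an adenocarcinoma of the human lung. The 10 genes described here were chosen by name, for their place in glucose uptake, glycolysis and lactate formation, out of 20162 annotated protein-coding genes. The choice was made with earlier results of these data known, so the shares below describe these genes only. Every peak that touched 1 of these genes, or the 1000 bases on either side of it, was taken. YTHDC1 is a nuclear reader of N6-methyladenosine in RNA, and ChIP-seq measures where it can be crosslinked to DNA. The series is 1 group, 3 replicates of YTHDC1 ChIP-seq in wild-type A549 cells, with no treatment or knockdown given, and the authors pooled the replicates before they called 6368 broad peaks. The study describes the experiments shown with these data as independent, and the labels do not name separate cultures. All values below therefore describe 1 peak set, with no spread between replicates, no test and an unknown depth per sample. No input or IgG library was analysed here. Each peak carries 1 value from the peak caller, read here as −log10 of its q-value, so that a value above 1.301 is a q-value under 0.05.

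Glycolysis splits glucose into pyruvate in the cytoplasm, spending ATP in a preparatory phase and regaining it in a payoff phase. Tumour cells often run it at a high rate and reduce much of the pyruvate to lactate even where oxygen is present. Several of its genes are known targets of the hypoxia factor HIF-1, which recognises the core ACGTG, and of MYC, which recognises the E-box CACGTG. Many of the enzymes are also among the most abundant proteins of a cell, and GAPDH, PGAM1 and others have many processed pseudogene copies.

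Of the 10 genes, 5 carried a peak and 5 carried none, against 25.1% of all protein-coding genes counted the same way. The 5 with a peak were HK2, GAPDH, PGAM1, PKM and LDHA. All 5 had a peak within 200 bases of an annotated start, and of the canonical start, where the shares of all protein-coding genes were 15.7% and 11.7%. The 5 without a peak were SLC2A1, ALDOA, TPI1, PGK1 and ENO1, and none of these had a peak within 5000 bases. Genes differ in length, and long genes have more room for a peak. Among genes under 10 kb, where 17.9% of all genes had a peak, the count was 2 of 4 members (GAPDH and PGAM1, not ALDOA or TPI1). Among genes of 10 to 100 kb it was 3 of 5 (HK2, PKM and LDHA, not ENO1 or SLC2A1), with a background of 26%. PGK1 is annotated over 218557 bases on chromosome X because of upstream transcripts, although its canonical transcript spans 25048. Of genes of 100 kb or more 32.6% had a peak, and of the genes on chromosome X 6.21%.

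The 5 genes held 10 peaks between them, which covered 4813 bases. GAPDH and LDHA had 3 each, PKM had 2, and HK2 and PGAM1 had 1 each. A gene with 3 or more peaks was uncommon, at 0.789% of all protein-coding genes, and one with 2 or more at 4.32%. By position, 5 peaks lay at starts, 2 in gene bodies (at GAPDH and LDHA, against 8.66% of all protein-coding genes) and 3 past the annotated end. The plot of peaks along the 5 genes shows that 4 of the 5 start peaks began after the canonical start and covered part of intron 1, whereas that of HK2 lay before it.

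**Figure D1:**
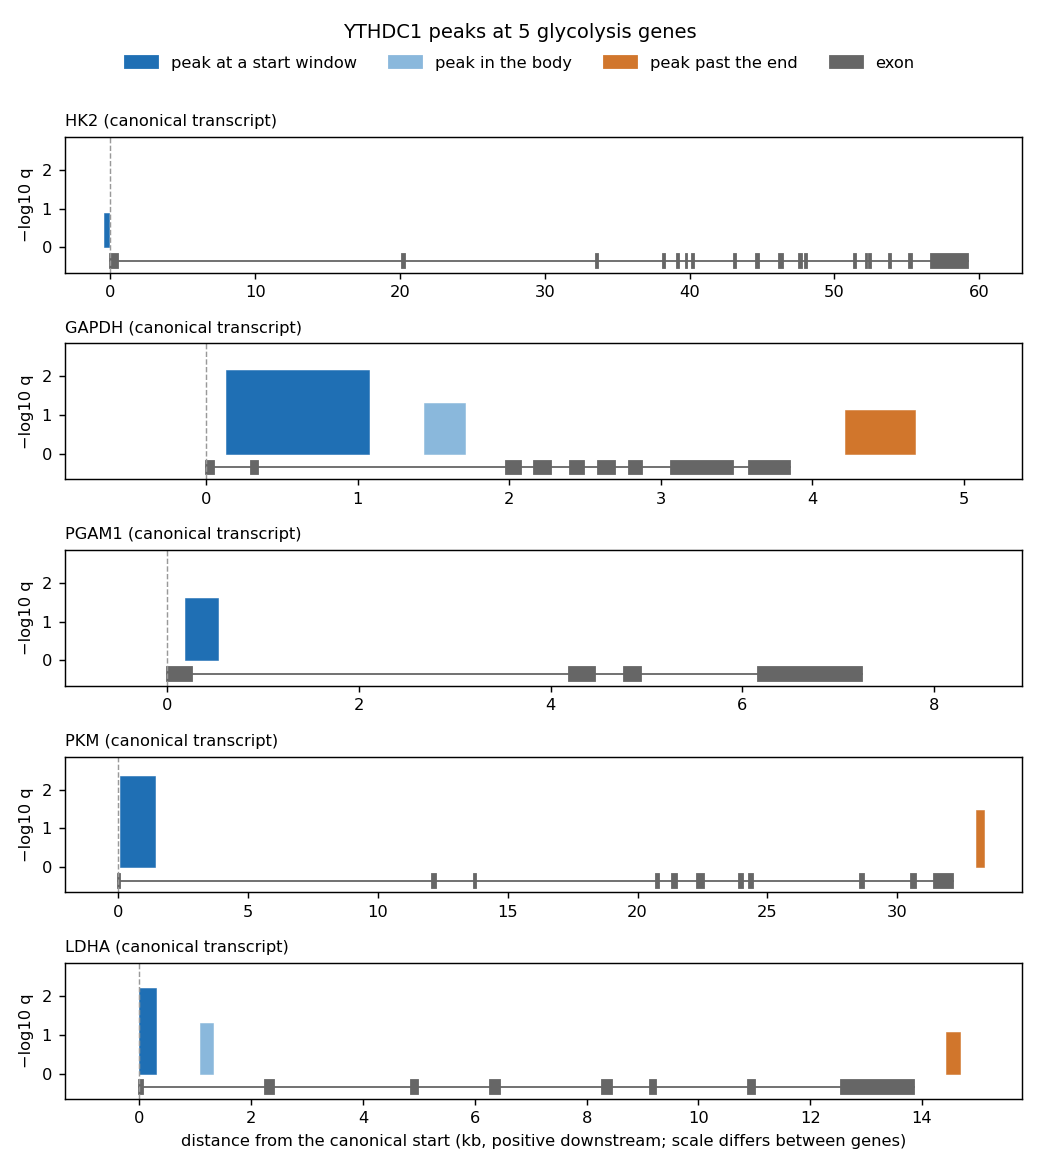
YTHDC1 peaks (coloured blocks, height −log10 q on the y axis) along the canonical transcripts of HK2, GAPDH, PGAM1, PKM and LDHA (grey, exons as boxes), by distance from the canonical start in kb (x axis, its scale differing between genes). GAPDH and LDHA have a peak at the start, one in the body and one past the end, PKM one at the start and one past the end, and HK2 and PGAM1 one at the start.

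Sequences of 5 regions are shown, taken from hg19 and written 5′ to 3′ on the strand of the gene. The first 3 are the central 200 bases of the start peaks of HK2 (chr2:75060888-75061087, plus strand), GAPDH (chr12:6644185-6644384, plus strand) and PKM (chr15:72522705-72522904, minus strand), all of which lie outside the exons of the canonical transcripts. The other 2 are the 250 bases before the canonical starts of LDHA (chr11:18415860-18416109, plus strand), whose peak begins 1 base after that start, and of PGK1 (chrX:77359495-77359744, plus strand), which has none. Capitals mark ACGTG and GGGCGG on either strand, so that CACGT and CCGCCC are marked too. A match is only a run of letters, and occupancy by any factor that recognises it was not measured. All 5 regions shown hold ACGTG. The 301 bases centred on the PGAM1 start peak, not shown, hold none. Nor do the 250 bases before and 50 after the canonical starts of SLC2A1, TPI1, ENO1 and PKM. Whether a peak depends on these sequences was not tested.
HK2 start peak: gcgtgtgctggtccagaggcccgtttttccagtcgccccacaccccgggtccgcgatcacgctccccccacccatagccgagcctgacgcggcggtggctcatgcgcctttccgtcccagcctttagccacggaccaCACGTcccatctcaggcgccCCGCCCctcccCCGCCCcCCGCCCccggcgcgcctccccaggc
GAPDH start peak: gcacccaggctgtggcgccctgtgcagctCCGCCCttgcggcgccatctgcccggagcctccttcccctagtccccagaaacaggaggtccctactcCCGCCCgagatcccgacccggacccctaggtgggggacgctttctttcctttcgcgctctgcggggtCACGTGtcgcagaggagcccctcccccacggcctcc
PKM start peak: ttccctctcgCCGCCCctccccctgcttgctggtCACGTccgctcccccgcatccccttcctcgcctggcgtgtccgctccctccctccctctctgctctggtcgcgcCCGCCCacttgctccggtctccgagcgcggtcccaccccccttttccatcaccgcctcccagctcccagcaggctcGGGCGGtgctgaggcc
LDHA before the start: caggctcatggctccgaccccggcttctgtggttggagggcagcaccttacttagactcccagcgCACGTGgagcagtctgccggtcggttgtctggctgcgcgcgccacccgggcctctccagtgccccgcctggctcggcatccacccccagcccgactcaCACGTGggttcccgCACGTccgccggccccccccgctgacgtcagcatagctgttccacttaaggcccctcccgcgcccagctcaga
PGK1 before the start: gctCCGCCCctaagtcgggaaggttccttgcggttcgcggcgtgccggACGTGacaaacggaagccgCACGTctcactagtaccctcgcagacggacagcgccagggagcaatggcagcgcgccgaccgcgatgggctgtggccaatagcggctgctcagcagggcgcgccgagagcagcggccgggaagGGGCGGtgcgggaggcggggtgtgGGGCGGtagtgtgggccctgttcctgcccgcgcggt

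Glucose uptake and the preparatory phase had a single peak among 4 genes, beside 25.1% of all protein-coding genes with a peak. SLC2A1, which encodes the glucose transporter GLUT1 (chromosome 1, 43391024 to 43424564, minus strand), had none, and its nearest peak lay 390015 bases away. HK2, encoding the hexokinase that phosphorylates glucose on entry (chromosome 2, 75061254 to 75120486, plus strand), had 1 peak at 75060794 to 75061181, 388 bases wide. Its −log10 q of 0.874 was the lowest of the 10 peaks, a q-value of 0.134, and 16.4% of all peaks were weaker. The peak ended 73 bases before the HK2 start and overlapped HK2-DT, a divergent long non-coding RNA gene whose own start window it also touched. It therefore cannot be assigned to 1 of these genes. ALDOA, encoding the aldolase that cleaves fructose 1,6-bisphosphate (chromosome 16, 30075485 to 30081778), and TPI1, encoding triosephosphate isomerase (chromosome 12, 6976283 to 6980112), had no peak, with the nearest at 21715 and 99727 bases.

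Genes of the payoff phase held 6 of the 10 peaks, at 3 of 5 genes, beside 25.1% of all protein-coding genes with a peak. GAPDH, the first of these enzymes, oxidises glyceraldehyde 3-phosphate (chromosome 12, 6643678 to 6647540, plus strand). Its start peak was 947 bases wide, wider than 97.4% of all peaks, at a −log10 q of 2.16, which exceeded 80.6% of them. It began 128 bases after the canonical start, and 94.5% of its bases were intronic, in introns 1 and 2 on either side of the short exon 2. The second GAPDH peak (6645119 to 6645392, −log10 q 1.32) followed after a gap of 361 bases and lay wholly in intron 2. The third (6647901 to 6648364, −log10 q 1.14, a q-value of 0.0726) began 364 bases past the canonical end. It overlapped the neighbouring gene IFFO1, which was named after its values were seen.

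PGK1, encoding the kinase that makes the first ATP of the payoff phase (chromosome X, 77166236 to 77384792), had no peak. Its nearest lay 2672026 bases away, the farthest among the 5 genes without one. Over all 15099 protein-coding genes without a peak the median distance was 126069 bases (quartiles 39199 and 373484). PGAM1, encoding phosphoglycerate mutase (chromosome 10, 99185948 to 99193201, plus strand), had 1 peak at 99186137 to 99186480 with a −log10 q of 1.62. It covered the last 67 coding bases of exon 1 and the beginning of intron 1, and 11.8% of its 31-mers occurred elsewhere in the genome. ENO1, encoding enolase (chromosome 1, 8921059 to 8939249, minus strand), had none within 148271 bases.

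PKM, encoding the pyruvate kinase of most tissues and tumours (chromosome 15, 72491370 to 72524160, minus strand), had the strongest and the widest of the 10 peaks. It spanned 1338 bases (72522136 to 72523473), more than 99.2% of all peaks, with a −log10 q of 2.35, above 84.2% of them. It began 58 bases after the canonical start and reached 1395 bases into the gene, with 98.7% of its bases in intron 1. No peak lay in the next 31658 bases, which hold the mutually exclusive exons that separate the M1 and M2 forms of the enzyme. The second PKM peak (72490203 to 72490477, −log10 q 1.48) began 893 bases past the end and touched the start window of GRAMD2A, so that it may be counted to either gene.

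LDHA, encoding the lactate dehydrogenase subunit that reduces pyruvate to lactate (chromosome 11, 18416107 to 18429972, plus strand), had 3 peaks of falling −log10 q along the gene. The first (18416111 to 18416410, 2.22) covered 300 bases, from the base after the canonical start through exon 1 into intron 1. The second (18417191 to 18417422, 1.31) followed 780 bases later within intron 1. This peak and the GAPDH body peak were just inside a q-value of 0.05, at 0.0486 and 0.0481. The third LDHA peak (18430534 to 18430784, −log10 q 1.06, a q-value of 0.0863) began 562 bases past the end, overlapped no other annotated gene, and had 22.2% of its 31-mers repeated elsewhere.

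Across the 10 peaks the −log10 q had a median of 1.40 (range 0.874 to 2.35), beside 1.33 for all peaks, and the width a median of 322 bases (range 232 to 1338), beside 348. A q-value under 0.05 was reached by 7 of the 10, and by 52.1% of all peaks. The 3 that missed it were the HK2 peak and the peaks past the ends of GAPDH and LDHA. The strongest, at PKM, ranked 1008 of 6368 by −log10 q, as the plot of width against −log10 q shows. The start peaks other than that of HK2 had the 4 highest values, and all 5 start peaks had a median −log10 q of 2.16 at a median width of 388 bases. All peaks at canonical starts of protein-coding genes had 1.42 and 386 bases.

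**Figure D2:**
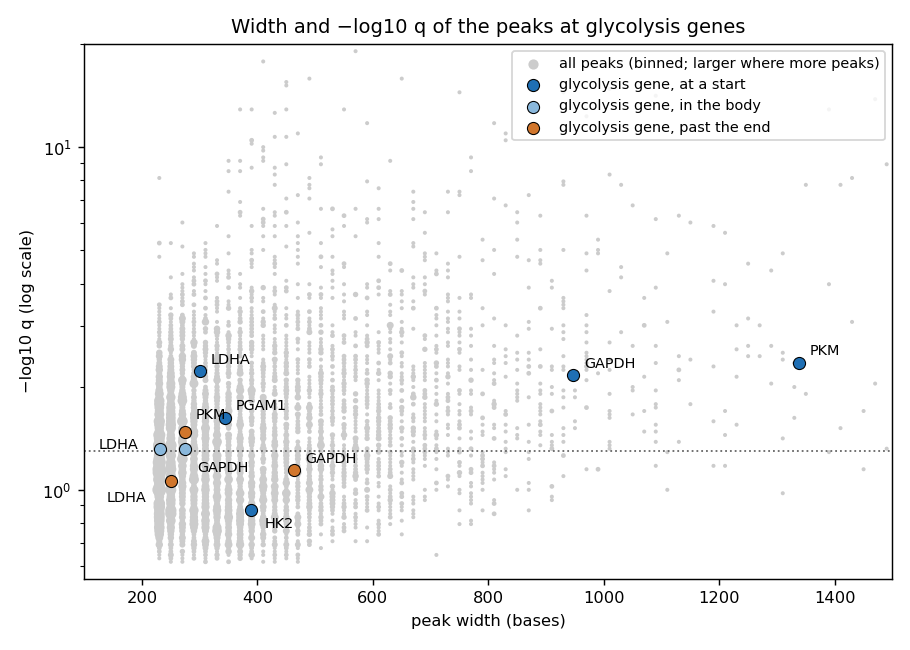
Width in bases (x axis) against −log10 q (y axis, log scale) of the 10 peaks at glycolysis genes (coloured, labelled by gene) and of all 6368 peaks (grey, binned). The dotted line is a q-value of 0.05, the axes leave out 32 peaks wider than 1500 bases and 14 with a −log10 q over 20, and the start peaks of GAPDH and PKM stand apart by width rather than by −log10 q.

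The place of the start peaks was compared with that of other genes. Of the 5, 4 lay wholly downstream of the canonical start and the fifth wholly upstream, so that none spanned it. The peaks of LDHA, GAPDH and PKM did hold another annotated start of their gene, 9, 184 and 650 bases from their midpoints. Their place relative to a start therefore depends on the transcript used. Among all 2395 peaks within 200 bases of a canonical start 36.9% lay wholly downstream, 48.9% spanned the start and 14.2% lay upstream. The midpoints were at -267 bases for HK2, 150 for LDHA, 360 for PGAM1, 601 for GAPDH and 727 for PKM, and the median over all such peaks was 116 (quartiles -79.5 and 252). When the midpoint had to fall in a start window, GAPDH and LDHA alone kept a start peak, against 10.8% of all genes. In GAPDH this was the window of an annotated start inside the gene. Of the 4813 bases under the 10 peaks 67.0% were intronic, 28.6% lay outside the canonical transcripts, 2.35% were in 5′ UTRs and 1.99% were coding. No base lay in a 3′ UTR.

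Peaks past the end were also counted. GAPDH, PKM and LDHA each had one that reached into the 1000 bases after the annotated end, 3 of 10 genes against 1.53% of all protein-coding genes. Of the 5 members with a start peak these are 3, whereas 2.69% of the 3163 genes with a start peak had one past the end. The PKM peak began 893 bases past the end with its midpoint at 1030, so it lay partly beyond the 1000 bases. Leaving out peaks that also touch a start window of any gene removes PKM and leaves GAPDH and LDHA, against 0.699% of all genes. With a q-value under 0.05 PKM alone remained (0.908% of all genes), so the GAPDH and LDHA peaks past the end were both above that q-value.

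The other genes of the pathway were counted from a list of 45 transporters, isoenzymes and regulators. Of these, 16 had a peak (35.6%, beside 25.1% of all genes) and 9 had one at a start (20.0%, beside 15.7%). At PDK2, PFKFB3, SLC2A2, GPI, LDHB and ARNT, 6 genes in all, a peak remained at a q-value under 0.05, where the share of all genes was 14.3%. The strongest was at PDK2, a kinase that inhibits pyruvate dehydrogenase. It was 1154 bases wide, centred at -6 bases relative to the canonical start, with a −log10 q of 5.97. PDK1 (0.714) and PDK3 (0.770), of the same family, had weak start peaks, and the remaining kinase had none. PFKFB3, whose product makes the activator of phosphofructokinase, had 4 peaks, of which the strongest lay at its canonical start (−log10 q 2.70). LDHB, encoding the other main lactate dehydrogenase subunit, had a start peak of 1.74, so both subunit genes had one. The LDHB peak also touched the start window of another annotated protein-coding gene. GPI, which acts between hexokinase and phosphofructokinase, had start peaks of 1.87 and 0.916. The stronger was centred at -6008 bases relative to the canonical start, in the window of another annotated start of GPI. It also touched the start window of a long non-coding RNA gene.

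The remaining peaks of this list missed a q-value of 0.05 or lay away from the canonical starts of their genes. PFKM, a phosphofructokinase gene, had one of 1.23 that lay at the start of SENP1, and PFKP an intronic one of 0.935. The glucose transporter genes SLC2A2 (1.95) and SLC2A3 (1.17) had peaks inside the annotated gene and none at a start. ADPGK, an ADP-dependent glucokinase gene, had a start peak of 1.05. ENO4 had one of 0.889 shared with HSPA12A, and the peak past the end of GAPDHS (0.783), the sperm isoenzyme, lay at the start of TMEM147. HIF1A (0.934), ARNT (1.42) and EPAS1 (1.25), which encode hypoxia factors, each had 1 peak in intron 1, centred 983, 424 and 919 bases after the canonical start and outside every start window of the gene. None of the 5 genes for lactate transport, and neither of the other aldolase genes, had a peak, where 25.1% of all protein-coding genes had one.

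Actin, tubulin and heat shock protein genes, many of which are also known for abundant transcripts, were counted for comparison. Of 22 actin and tubulin genes 6 had a peak (27.3%), 3 at a start and 3 past the end. Of 25 heat shock protein genes 10 had a peak (40.0%), 8 at a start and 1 past the end (all protein-coding genes 25.1%, 15.7% and 1.53%). The strongest were the peak shared by TUBA1A and TUBA1C (−log10 q 3.85), followed by TUBB4B (2.97) and ACTB (2.16), and, for the chaperones, DNAJA1 (3.17), HSPA8 (2.18), HSP90AB1 (2.15) and HSPA4 (1.77). Not all of these lay at a start of the named gene. Those of TUBB4B and HSPA4 lay in the body, and that of HSP90AB1 past the end. The ACTB peak was centred at -25947 bases relative to the canonical start, at the start of a long non-coding RNA gene. The genes with a peak past the end were ACTB, TUBA1B, TUBG2 and HSP90AB1, of which TUBA1B and TUBG2 were named after their values were seen. Differences between these lists were not tested, and transcript levels were not analysed here.

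**Figure D3:**
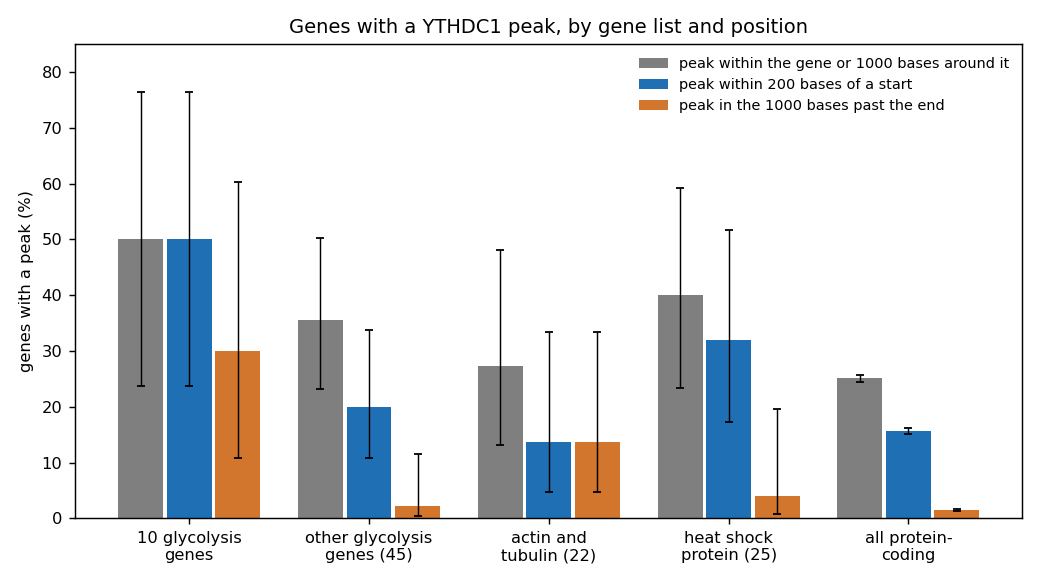
Percent of genes with a YTHDC1 peak (y axis) in each gene list (x axis, number of genes in brackets), within the gene or 1000 bases around it (grey), within 200 bases of a start (blue) and in the 1000 bases past the end (orange). Lines are 95% Wilson intervals, which depend only on the share and the number of genes in a list. The gene lists were chosen with earlier results of these data known, not drawn at random. The lines therefore measure no sampling error or spread between replicates, and their overlap does not test a difference between lists. The 10 glycolysis genes stand at 50% for both of the first measures and 30% for the last, with wide intervals, and all protein-coding genes at 25.1%, 15.7% and 1.53%.

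Promoter composition overlapped between members with a peak and those without. In the 250 bases before and 50 after the canonical start, GC ranged from 64.0% to 75.3% in the 5 genes with a start peak and from 69.7% to 71.0% in the others. The ratio of observed to expected CpG ranged from 0.825 to 1.04 and from 0.803 to 1.03. All 10 are CpG-rich promoters, with a median ratio of 0.938 and a median GC of 70.7%, beside 0.773 and 63.7% for all protein-coding genes. Protein-coding genes with a start peak had medians of 0.862 and 66.7%, and those without had 0.744 and 62.7%. The shares of all protein-coding genes given above were not matched for promoter composition.

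**Figure D4:**
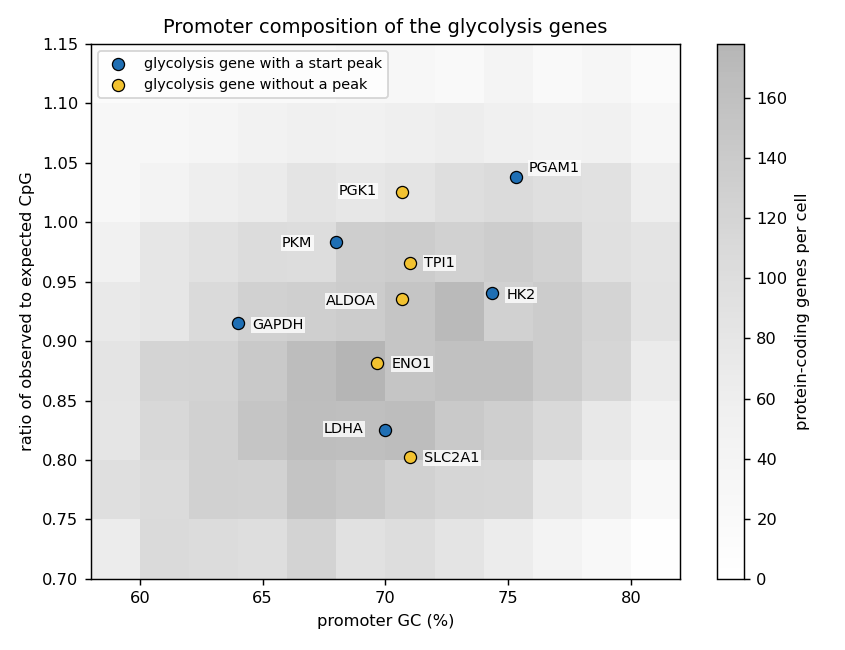
GC in percent (x axis) and ratio of observed to expected CpG (y axis) of the promoters of the 10 glycolysis genes, with a start peak (blue) or without a peak (yellow). Grey shading is the number of protein-coding genes per cell, and only the part of the range that holds the 10 genes is drawn. By GC, members with a peak lie on both sides of those without one. By CpG ratio the ranges overlap, and the lowest is SLC2A1, which has no peak.

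Motif letters were searched on both strands, so that a CACGTG also counts as ACGTG on each strand. ACGTG occurred in 6 of the 10 member promoters, against 23.3% of 20140 protein-coding promoters, in 4 of the 5 with a start peak (not PKM) and in ALDOA and PGK1 of the others. LDHA had 5 matches, of which 4 come from its 2 CACGTG sites, all visible in the sequence above. GGGCGG occurred in 8 of 10 promoters (61.0% of all), TATAAA in 2 (9.79%) and CACGTG in 1 (8.74%). In windows of 301 bases centred on the peaks, ACGTG was found in 6 of 10 (23.0% of all peaks), GGGCGG in 7 (43.8%), TATAAA in 1 (8.18%) and CACGTG in 1 (6.88%), which is the site in the GAPDH sequence.

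Copies of these genes elsewhere in the genome may take up or share reads, so repeated sequence was measured. Among positions in canonical exons, the share whose 31-mer occurs more than once in the assembly was 86.6% for PGAM1, 49.4% for TPI1, 46.4% for GAPDH, 29.3% for LDHA, 27.7% for HK2, 18.4% for PGK1, 18.1% for PKM, 9.71% for ENO1, 4.51% for ALDOA and 0% for SLC2A1. The promoters of the 10 genes were free of such sequence except for TPI1 (6.67%) and PGAM1 (16.3%). Of the 10 peaks 6 held none and no peak more than 22.2%. The promoters of SLC2A1, ALDOA, PGK1 and ENO1, which had no peak, held no repeated 31-mer. Over each of these genes with the 1000 bases around it, the share was 5.92%, 7.37%, 19.0% and 11.6%, in that order. The part of repeated sequence in the missing peaks of these genes and of TPI1 was not tested. None of the 102 annotated pseudogenes named after the 10 genes, 65 of them after GAPDH, was overlapped by a peak. Of these, 2 (TPI1P2 and ENO1P3) had one within 1000 bases. Among all 15399 annotated pseudogenes, 75 were overlapped and 131 had a peak within 1000 bases. The peak near TPI1P2 lay at a start of TNPO3, and the peak near ENO1P3 overlapped ITGB5.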

How the data were processed

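YTHDC1 ChIP-seq was performed in A549 cells in 3 replicates. In the study's methods the reads were aligned to hg19 with Bowtie2, whereas the submitters' processing notes name BWA. The authors pooled the aligned reads and called broad peaks with MACS2 (q-value 0.1, broad cutoff 0.25), and a control library is not given in the sources used here. The deposited peak file holds 1 value per peak, read as −log10 of the q-value because the lowest, 0.610, lies just above 0.602, the −log10 of the broad cutoff. Depth per sample is unknown, and pooled replicates allow neither a spread nor a test.

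From the deposited coordinates, written counting from 1, peaks were assigned to GENCODE release 44 genes on GRCh37 if they shared 1 base with the gene or the 1000 bases around it. Peaks at starts shared a base with 200 bases on either side of an annotated start. Peaks past the end lay wholly beyond the gene and shared a base with the 1000 bases after it. Sequences, GC and repeated 31-mers came from GRCh37, the same build. Shares are given beside all protein-coding genes. Intervals are Wilson intervals, which depend only on the share and the number of genes and measure no sampling error for chosen lists. All 10 members, every other glycolysis gene with a peak, the 4 strongest genes of each other list and genes whose start a member peak touches were named. Members and lists were chosen with earlier results of these data known. The counting rules were tested on simulated peaks. Python 3.11.15, numpy 2.4.6, scipy 1.17.1, numba 0.67.0 and matplotlib 3.10.9 were used.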

Additional observations from a re-analysis of the deposited data

How the results depend on the processing

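The count of 5 glycolysis genes with a peak ranged from 4 to 5 over the 6 alternatives, with HK2 the gene lost when the gene alone, a q-value under 0.05 or the upper 50% of the peaks by −log10 q was used, each of which keeps fewer peaks or a narrower region by construction. The number of peaks at the 10 genes fell from 10 to 6 for the gene alone and to 5 among the upper 50%. With the peak midpoint inside the window, 2 genes rather than 5 had a start peak. Of the other glycolysis genes, 6 rather than 16 had a peak at a q-value under 0.05 and 6 among the upper 50%. The median −log10 q moved from 1.40 to 1.89 for the gene alone and to 1.62 at a q-value under 0.05, where the median width moved from 322 to 300 bases. Past the end, 1 gene rather than 3 had a peak at a q-value under 0.05. The alternatives for peaks past the end and the canonical transcript span were chosen after seeing the data. Leaving out a replicate could not be run, since the replicates were pooled before peak calling, and depth per sample, which limits what a missing peak means, is unknown.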
